A study of Mus musculus with 6 samples.

Results

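Transcript levels of 45 genes of DNA replication were described in mouse intestinal stem cells labelled as deleted for Klf5 or as controls. Klf5 encodes a Kruppel-like zinc finger regulator of transcription. The genes were a list by name, and all 45 were found among the 53379 genes of the deposited tables. They were split by role into 12 genes of origin licensing, 8 of origin firing, 18 of polymerases, clamp and fork maintenance, 5 of nucleotide synthesis and 2 E2F regulators. The libraries labelled Klf5-KO came from C57BL/6 mice with Klf5fl/fl alleles together with Lgr5-EGFP-IRES-CreERT2 and Rosa-tdTomato. The control libraries came from C57BL/6 mice with Lgr5-EGFP-IRES-CreERT2 and Rosa-tdTomato alone. There were 3 libraries of each. Adult mice of both groups received 1 mg of tamoxifen per injection on 5 days, so the controls also carried the reporters and an activated Cre. Cre is expressed from the Lgr5 locus, which is active in the crypt base stem cell that the study sorted by bright EGFP from the proximal small intestine. The sources used here give neither the time between tamoxifen and sorting nor whether each library was a separate mouse, so p-values measure the spread between libraries, which may be technical.

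Before S phase, the origin recognition complex, Cdc6 and Cdt1 load the ring-shaped MCM helicase on DNA, a step called licensing, and geminin blocks Cdt1 once replication has begun. The Dbf4-dependent kinase Cdc7, Cdc45, GINS and Mcm10 turn the loaded ring into a moving fork, where primase, DNA polymerases, the sliding clamp PCNA and its loader RFC copy the strands. E2F transcription factors drive many of these genes as cells enter S phase, and Lgr5 stem cells of the crypt base are known to cycle continuously.

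Promoter windows were examined because E2F factors are known to act at such sites, and 4 are shown, of the genes past the test's threshold with the largest fold changes in each direction. The windows hold 250 bases before and 50 bases after the annotated start and come from RefSeq on GRCm38.p6, the build of the counts (mm10). Capitals mark matches on either strand to any of the E2F-type motifs TTTCCCGC, TTTCGCGC, TTTGCCGC and TTTGGCGC. The E2f2 window (chr4:136172024-136172323, plus strand), the Cdt1 window (chr8:122567765-122568064, plus strand), the Mcm10 window (chr2:5012742-5013041, minus strand) and the Pcna window (chr2:132253131-132253430, minus strand) read 5′ to 3′ as follows.
E2f2: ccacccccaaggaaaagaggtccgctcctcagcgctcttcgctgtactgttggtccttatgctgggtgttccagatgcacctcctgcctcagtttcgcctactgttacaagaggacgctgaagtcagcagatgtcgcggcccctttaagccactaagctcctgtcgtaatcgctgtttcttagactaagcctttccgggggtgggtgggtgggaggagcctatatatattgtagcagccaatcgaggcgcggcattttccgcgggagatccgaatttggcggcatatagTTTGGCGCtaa
Cdt1: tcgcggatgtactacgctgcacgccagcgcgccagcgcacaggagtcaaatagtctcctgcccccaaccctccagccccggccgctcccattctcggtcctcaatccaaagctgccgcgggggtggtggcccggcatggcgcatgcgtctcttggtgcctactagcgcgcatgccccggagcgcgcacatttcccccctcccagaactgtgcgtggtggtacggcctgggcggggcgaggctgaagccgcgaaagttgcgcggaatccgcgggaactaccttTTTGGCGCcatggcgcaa
Mcm10: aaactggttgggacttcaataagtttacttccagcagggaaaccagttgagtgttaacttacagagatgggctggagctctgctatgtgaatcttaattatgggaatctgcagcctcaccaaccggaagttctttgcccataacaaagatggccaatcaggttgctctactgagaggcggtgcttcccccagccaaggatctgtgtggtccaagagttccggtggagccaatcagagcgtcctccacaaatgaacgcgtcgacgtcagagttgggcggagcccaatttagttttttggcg
Pcna: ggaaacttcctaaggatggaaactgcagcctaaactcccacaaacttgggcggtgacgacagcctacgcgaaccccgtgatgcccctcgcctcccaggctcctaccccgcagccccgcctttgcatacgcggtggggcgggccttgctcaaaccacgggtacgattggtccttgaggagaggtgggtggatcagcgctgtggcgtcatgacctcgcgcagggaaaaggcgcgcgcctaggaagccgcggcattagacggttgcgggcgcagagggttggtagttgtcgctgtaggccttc
The motif TTTGGCGC began 39 bases after the annotated start of E2f2 and 32 bases after that of Cdt1, and these letters were not in the windows of Mcm10 and Pcna. The Mcm10 window ends in TTTGGCG, all but the last letter of this motif. A match that crosses the edge of a window could not be found. The RefSeq starts of E2f2 and Pcna lie 120 and 134 bases from the gene starts in the counting annotation, and those of Cdt1 and Mcm10 coincide with them.

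Windows were held for 37 of the 45 replication genes, and 14 of the 37 (37.8%) had at least 1 of these E2F-type motifs. Of all 12020 tested genes with a window, 522 (4.34%) had one. Among the replication genes the motif was found in 7 of 10 licensing genes, 1 of 5 origin firing genes, 5 of 15 polymerase and clamp genes, none of 5 nucleotide genes and 1 of 2 E2F regulators. Of the 9 genes that fell, 5 held it (Cdc6, Cdt1, Mcm3, Lig1 and E2f2), as did 9 of 27 that did not pass the threshold. Some genes had several windows, and a match in any of them was counted. For Lig1 the match was in a window inside the gene (chr7:13278576-13278875), and the window before the gene's start (chr7:13276925-13277224) had none. The GC box GGGCGG is a motif of the kind that Sp and Kruppel-like factors bind. It was found for 28 of the 37 genes (75.7%) and for 64.4% of all tested genes with a window. The CACCC box CCACCC was found for 9 of the 37 genes (24.3%) against 41.0%. The CCAAT box CCAAT was found for 22 of the 37 genes (59.5%) against 42.5%. All motifs were searched on both strands and could overlap each other, and a match describes the letters only, not binding.

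Deposited counts summed to between 66431695 and 72240451 in the libraries labelled Klf5-KO and to between 61563625 and 77666540 in the control libraries. Single replication genes had 380 to 20723 counts in a library, and none was at 0. The targeted gene went against its label. Klf5 had 60238, 58956 and 63492 counts in the libraries labelled Klf5-KO, against 34951, 39455 and 33862 in the control libraries (log2 fold change 0.80, SE 0.10, adjusted p = 6.3e-04). Here and throughout, adjusted p comes from edgeR's quasi-likelihood test with Benjamini-Hochberg adjustment over all genes tested. This count covers all exons, and the sources used here do not give which exons Cre removes, so it checks neither the deletion nor the labels. Lgr5 stood at 87.6 ± 8.17 CPM (counts scaled to a common library size with TMM factors) in the libraries labelled Klf5-KO and 141 ± 19.2 CPM in the control libraries (SD, n = 3 each), with a log2 fold change of −0.68 (adjusted p = 0.0027).

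Control replicate 3 stood apart. The summed CPM of 12 Paneth cell markers was 10247, 9870.4 and 12251 in the libraries labelled Klf5-KO, against 1782, 2277 and 21397 in control replicates 1, 2 and 3, and none of these markers was at 0 in any library. Sums of 12 enteroendocrine markers were 96.6 to 108 CPM in libraries labelled Klf5-KO, against 168, 188 and 332 CPM in control replicates 1, 2 and 3. Sums of 12 intestinal stem cell markers were 4637 to 6068 CPM in libraries labelled Klf5-KO and 8953 to 12258 CPM in the controls, lowest among controls in replicate 3, and none was at 0 in any library. Goblet markers (8 genes) summed to 1181 to 1529.9 CPM in libraries labelled Klf5-KO against 2407 to 2676 CPM in the controls, tuft markers (8) to 78.3 to 149 against 56.1 to 77.1 CPM, and enterocyte markers (10) to 1608 to 2705 against 1084 to 1448 CPM. Immune markers (11) summed to 28.6 to 30.7 CPM in libraries labelled Klf5-KO against 23.5 to 42.7 CPM in the controls, and stromal markers (10) to 4.13 to 5.58 against 6.54 to 11.2 CPM, with Cdh5 and Col3a1 each at 0 in 4 libraries. The immune list holds Lyz2, which is also in the Paneth list, and Itgam, which shares 68.7% of its exon bases on its strand with Gm49368. Erythrocyte markers (6) reached at most 1.31 CPM. Past the threshold were 8 of 12 stem cell, 9 of 12 enteroendocrine and 3 of 8 goblet markers, all lower (against 12.5% lower over all genes tested), and 4 of 7 tested tuft and 4 of 10 enterocyte markers, all higher (against 13.3% higher). Of 4 tested stromal markers, 1 was lower and 1 higher (25% each), and log2 fold changes of the 4 ran from −1.18 to 3.86. None of the 12 Paneth, 9 tested immune or 1 tested erythrocyte markers passed. Mitochondrial genes took 3.01%, 3.00% and 3.36% of counts in libraries labelled Klf5-KO, against 2.69%, 1.97% and 2.53% in the controls, without overlap. The part of these marker and mitochondrial differences in the results was not tested. In bulk libraries, fewer cells of a type and less RNA per cell cannot be told apart.

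Of the 45 replication genes, all of which passed the low-count filter, 9 fell and 1 rose in the libraries labelled Klf5-KO (threshold 0.05 on the adjusted p), and 35 did not pass. Cdc6, Cdt1, Mcm2, Mcm3, Mcm10, Lig1, Tk1, E2f1 and E2f2 fell, and Pcna rose. The 9 that fell were 20% of the genes, against 12.5% lower over all 19339 genes tested, and the 1 that rose was 2.22%, against 13.3% higher. In either direction 22.2% of the replication genes were past the threshold, close to the 25.8% over all genes. The median log2 fold change of the 45 genes was −0.13, with a range of −0.67 to 0.36, against a median of −0.0090 over all genes tested. The groups did not overlap for 13 genes that were lower (28.9%, against 21% of all genes) and for 1 that was higher (2.22%, against 22.2%).

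**Figure D1:**
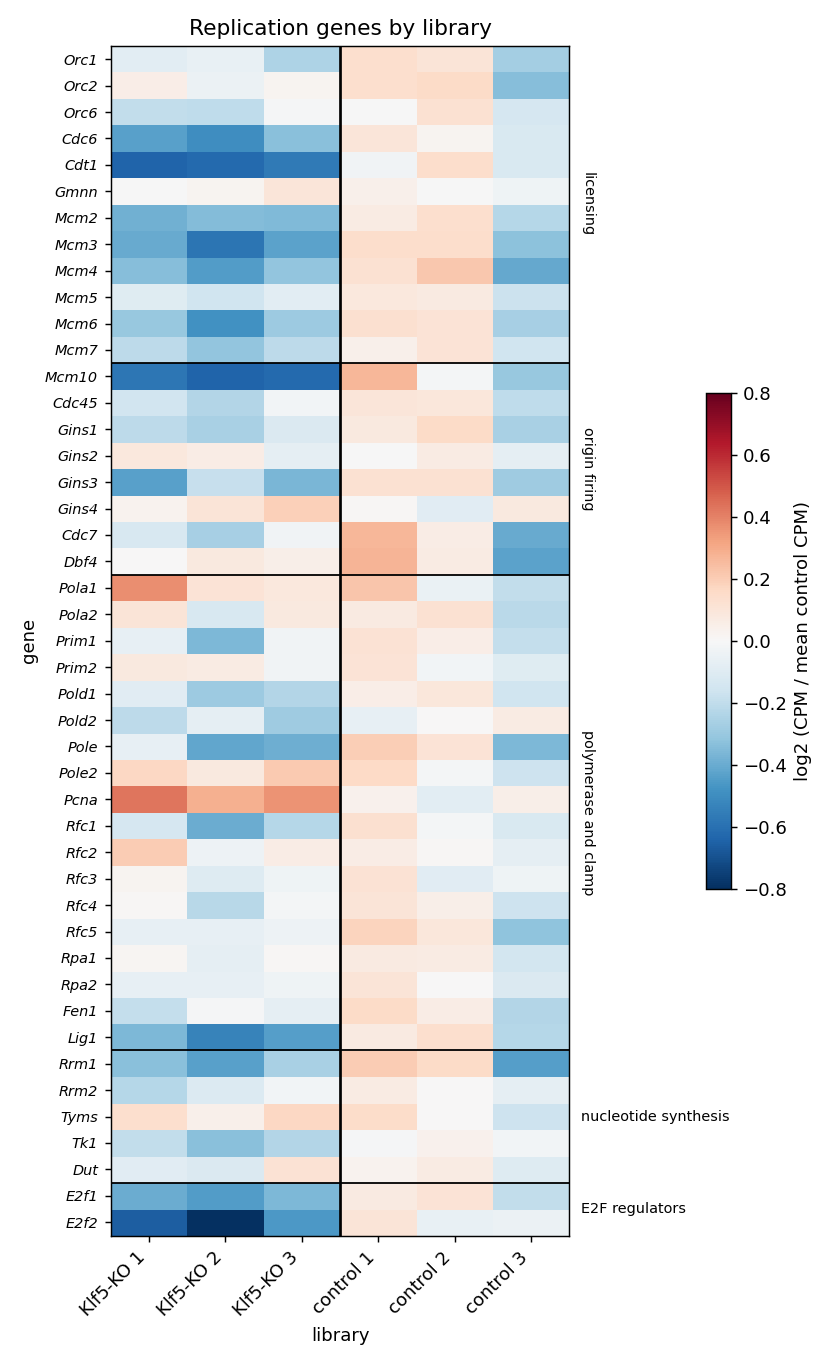
Level of each replication gene (rows, by role) in each library (columns), as log2 of its CPM over the mean CPM of the control libraries, with blue lower and red higher. Cdt1, Mcm10 and E2f2 are dark blue in the 3 libraries labelled Klf5-KO, Pcna is red there, and control replicate 3 is the lowest control for 40 of the 45 genes. The share over all genes tested was not taken.

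Control replicate 3 was the lowest control for 40 of the 45 genes. The coefficient of variation within the group was smaller in the libraries labelled Klf5-KO (median 5.75%) than in the controls (median 10.8%), and larger in the controls for 34 of the 45 genes. Neither count was set against its share over all genes tested. Over all those genes, control replicate 3 also stood apart from the other controls. Its chi-square over degrees of freedom was 144 and 133 against control replicates 1 and 2, which differed from each other by 45.7. The CPM of all 45 genes summed to 3002, 2776 and 2949.5 in the libraries labelled Klf5-KO, against 3501, 3412 and 2861 in control replicates 1, 2 and 3, so the groups overlapped through control replicate 3. For the proliferation marker gene Mki67 control replicate 3 was also the lowest control, with 821, 746 and 829 CPM in libraries labelled Klf5-KO and 1368, 1194 and 746 CPM in the controls. It did not pass the threshold (log2 fold change −0.47, adjusted p = 0.11). Without control replicate 3, 17 of the 45 genes were lower (37.8%, against 13.4% of all genes in that fit) and 1 was higher (2.22%, against 13.8%), and Mki67 passed (log2 fold change −0.68, adjusted p = 0.0055). Those added were Mcm4, Mcm6, Mcm7, Gins3, Pold1, Pole, Rfc1 and Rrm1. Without any 1 of the other libraries, 4 or 5 genes were lower, and Mki67 did not pass (weakest log2 fold change −0.28, highest adjusted p 0.33).

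**Figure D2:**
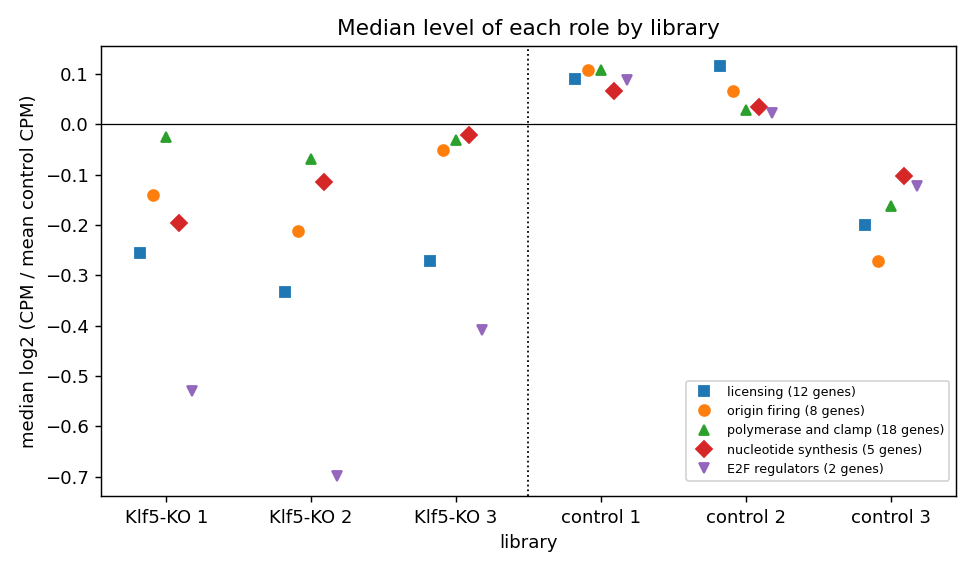
Median over the genes of each role of log2 CPM relative to the mean control CPM (y axis), for each library (x axis). The licensing medians lie between −0.33 and −0.26 in the libraries labelled Klf5-KO, against 0.09, 0.12 and −0.20 in control replicates 1, 2 and 3.

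Origin licensing genes held 4 of the 9 falls. Of the 12, Cdc6, Cdt1, Mcm2 and Mcm3 fell (33.3%, against 12.5% lower over all genes), none rose (against 13.3%) and 8 did not pass, with a median log2 fold change of −0.30. For 6 of the 12 the groups did not overlap, all lower (50%, against 21% of all genes). The summed CPM of the 12 was 943, 888 and 956 in the libraries labelled Klf5-KO, against 1223, 1250.1 and 982 in the controls, and the groups did not overlap.

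Cdt1, which brings the MCM ring to the origin, had 45.9, 46.4 and 48.4 CPM in libraries labelled Klf5-KO, against 70.0, 78.9 and 65.6 CPM in the control libraries (ENSMUSG00000006585.3, mm10 chromosome 8, 122568015 to 122573554). Every library labelled Klf5-KO was below every control, by more than the spread of either group. Cdt1 fell, with a log2 fold change of −0.61 (SE 0.09, adjusted p = 0.0016), and passed without any 1 library (adjusted p at most 0.011). Geminin (Gmnn), the inhibitor of Cdt1, had 29.8, 30.3 and 31.9 CPM in libraries labelled Klf5-KO, against 30.7, 29.9 and 29.2 CPM in the controls, with overlapping groups and a log2 fold change of 0.037 (SE 0.08, adjusted p = 0.78). Per exon length, the ratio of Cdt1 to Gmnn within a library was 0.718, 0.714 and 0.707 in the libraries labelled Klf5-KO, against 1.06, 1.23 and 1.05 in the controls.

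Cdc6, an ATPase that acts with the origin recognition complex, had 28.4, 27.2 and 30.5 CPM in libraries labelled Klf5-KO, against 41.1, 39.1 and 35.3 CPM in the control libraries (chromosome 11, 98907801 to 98923940). The groups did not overlap, and Cdc6 fell (log2 fold change −0.42, SE 0.09, adjusted p = 0.011), with an adjusted p of at most 0.048 without any 1 library. The listed genes of the origin recognition complex, Orc1, Orc2 and Orc6, did not pass. Orc3 and Orc4, which were not in the list, rose in the same fit, as given below. Orc1, Orc2 and Orc6 had log2 fold changes of −0.13, 0.0091 and −0.13 (SE 0.13, 0.13 and 0.10). Orc1 is the subunit whose level is known to vary over the cell cycle, and its groups overlapped, at 12.7 to 14.5 CPM in libraries labelled Klf5-KO and 12.5 to 16.7 CPM in the controls.

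The 6 subunit genes of the MCM helicase, Mcm2 to Mcm7, all had log2 fold changes below 0, between −0.47 and −0.11, and Mcm2 and Mcm3 passed the test. Mcm2 had 119, 122 and 121 CPM in libraries labelled Klf5-KO, against 162, 170.2 and 133 CPM in the control libraries (chromosome 6, 88883474 to 88898780). Mcm2 fell (log2 fold change −0.36, SE 0.10, adjusted p = 0.029). Mcm3 had 118, 104 and 115 CPM in libraries labelled Klf5-KO, against 171, 171 and 124 CPM in the control libraries (chromosome 1, 20802968 to 20820312). Mcm3 fell (log2 fold change −0.47, SE 0.13, adjusted p = 0.026). For both genes control replicate 3 lay nearest to the libraries labelled Klf5-KO, without overlap. Neither call held without any 1 of the libraries other than control replicate 3 (adjusted p of 0.080 to 0.096 for Mcm2 and 0.064 to 0.097 for Mcm3).

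Mcm6, the licensing gene with the highest level per length, had 181, 159.8 and 182 CPM in libraries labelled Klf5-KO, against 244, 241 and 186 CPM in the control libraries. The groups did not overlap, but Mcm6 missed the threshold (log2 fold change −0.36, SE 0.12, adjusted p = 0.052). It passed under 8 of 17 other settings, among them DESeq2 (adjusted p = 0.023) and the fit without control replicate 3 (adjusted p = 0.0054). With any other library left out instead, Mcm6 did not pass (highest adjusted p 0.18), nor did it with limma-voom or the replicate block. Mcm4 had 69.4 to 76.0 CPM in libraries labelled Klf5-KO and 103, 109.7 and 71.1 CPM in the controls, so that only control replicate 3 overlapped (log2 fold change −0.37, SE 0.15, adjusted p = 0.096). Mcm7 (log2 fold change −0.25, adjusted p = 0.081) did not overlap between groups, and Mcm5 (−0.11, adjusted p = 0.40) did. Mcm7 shares 3.89% of its exon bases on its strand with the microRNA genes Mir25 and Mir93.

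**Figure D3:**
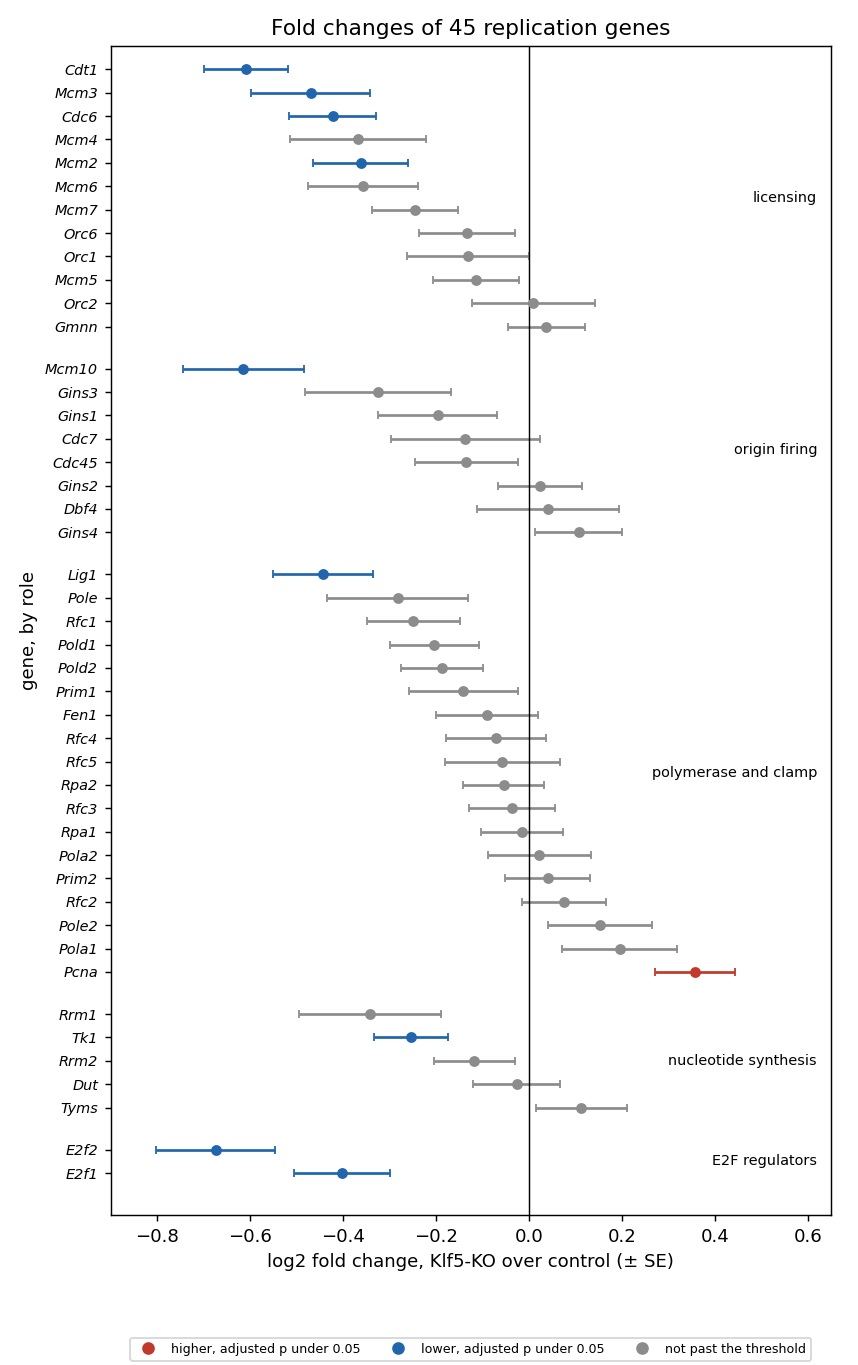
Log2 fold change of each replication gene, Klf5-KO over control (x axis, with SE bars), ordered within its role (y axis), with blue for lower and red for higher at an adjusted p under 0.05. E2f2, Mcm10 and Cdt1 lie at −0.67, −0.61 and −0.61, and Pcna at 0.36 is the only red point.

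Origin firing genes held 1 fall. Of the 8, Mcm10 fell (12.5%, the same share as the 12.5% lower over all genes), none rose and 7 did not pass, with a median of −0.14. Mcm10, which joins the helicase to primase and polymerase alpha, had 61.7, 59.0 and 59.9 CPM in libraries labelled Klf5-KO, against 111, 91.3 and 74.6 CPM in the control libraries (ENSMUSG00000026669.14, chromosome 2, 4989714 to 5012791). The libraries labelled Klf5-KO lay close together below the controls, which were spread widely. Mcm10 fell with a log2 fold change of −0.61 (SE 0.13, adjusted p = 0.0085) and passed without any 1 library (adjusted p at most 0.035). The GINS genes, whose products act together with Cdc45 and MCM, had log2 fold changes of −0.20 (Gins1), 0.024 (Gins2), −0.33 (Gins3) and 0.11 (Gins4). Gins4, the firing gene with the highest level per length, had 24.0, 25.3 and 26.9 CPM in libraries labelled Klf5-KO, against 23.7, 22.1 and 24.9 CPM in the controls, with overlapping groups (SE 0.09, adjusted p = 0.44). Cdc45, the kinase gene Cdc7 and its activator Dbf4 had log2 fold changes of −0.13, −0.14 and 0.041. Dbf4 spread most in the controls, at 65.5, 56.7 and 40.3 CPM, against 54.3, 57.1 and 55.9 CPM in libraries labelled Klf5-KO.

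Polymerase, clamp and fork genes had the median nearest to 0 of the 5 roles, at −0.056. Of the 18, Lig1 fell (5.56%, against 12.5% lower over all genes), Pcna rose (5.56%, against 13.3% higher) and 16 did not pass. The summed CPM of the 18 was 1459, 1308 and 1365 in the libraries labelled Klf5-KO, against 1509.6, 1438 and 1281 in the controls, with overlapping groups.

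Pcna, the sliding clamp that holds polymerases on DNA, had the highest level per length of the 45 genes. It had 300.2, 272 and 286 CPM in libraries labelled Klf5-KO, against 229, 210.5 and 230.4 CPM in the control libraries (ENSMUSG00000027342.14, chromosome 2, 132249162 to 132253314). Every library labelled Klf5-KO was above every control, and control replicate 3 lay with the other controls. Pcna rose (log2 fold change 0.36, SE 0.09, adjusted p = 0.015), a call not kept without control replicate 2 (adjusted p = 0.060), Klf5-KO replicate 1 (0.058) or Klf5-KO replicate 3 (0.053). The copy Pcna-ps2 had 90 to 120 counts in the libraries labelled Klf5-KO and 93 to 132 in the controls, and Pcna-ps1 had 0 in all. Reads that match a copy equally well could have been left out of the Pcna count.

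Lig1, the ligase that seals Okazaki fragments, had 106, 93.7 and 99.9 CPM in libraries labelled Klf5-KO, against 143, 149 and 116 CPM in the control libraries (chromosome 7, 13277283 to 13311433). The groups did not overlap, and Lig1 fell (log2 fold change −0.44, SE 0.11, adjusted p = 0.016). It did not pass without Klf5-KO replicate 2 (adjusted p = 0.064) or Klf5-KO replicate 3 (0.057). Fen1, the flap nuclease that acts before Lig1 on the lagging strand, had a log2 fold change of −0.090 (SE 0.11, adjusted p = 0.59).

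The 5 genes of the clamp loader, Rfc1 to Rfc5, had log2 fold changes of −0.25, 0.075, −0.037, −0.071 and −0.057, and none passed. Rfc1, the large subunit, had 114, 95.04 and 107 CPM in libraries labelled Klf5-KO, against 137, 124 and 115 CPM in the controls, without overlap (SE 0.10, adjusted p = 0.098). The ratio of Pcna to Rfc1 per exon length was 6.59, 7.17 and 6.71 in the libraries labelled Klf5-KO, against 4.20, 4.26 and 5.01 in the controls. The genes of DNA polymerase alpha and primase, Pola1, Pola2, Prim1 and Prim2, had log2 fold changes of 0.20, 0.022, −0.14 and 0.040. Those of polymerases delta and epsilon were −0.20 (Pold1), −0.19 (Pold2), −0.28 (Pole) and 0.15 (Pole2), and Pole2 shares 8.50% of its exon bases with Gm49384. Rpa1 and Rpa2, which coat single-stranded DNA, were at −0.014 and −0.055 (SE 0.09 each).

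**Figure D4:**
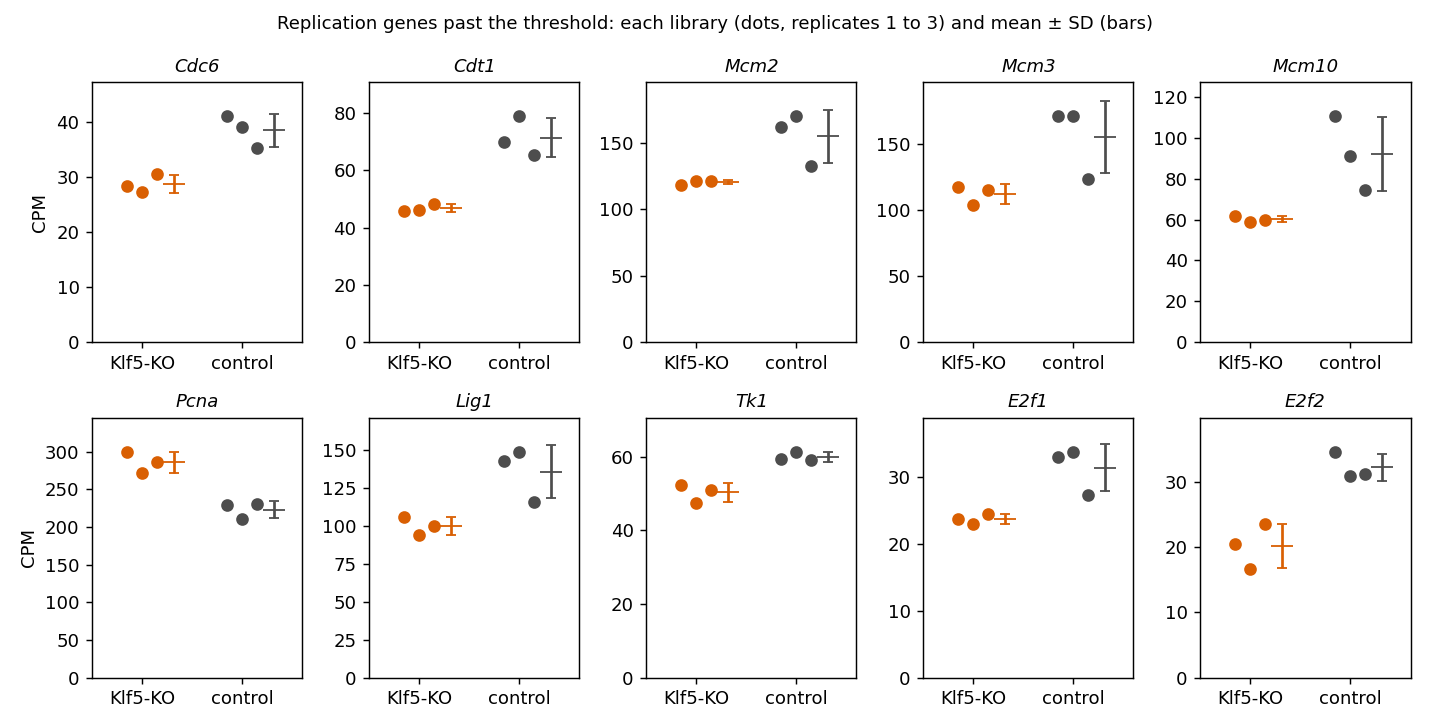
CPM (y axes, from 0) of the 10 replication genes past the threshold in each library (dots) with mean ± SD (bars, n = 3 each), Klf5-KO left and control right. The dots of the groups do not overlap in any panel, and Pcna alone is higher in the libraries labelled Klf5-KO (286 ± 14.3 against 223 ± 11.1 CPM).

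Nucleotide synthesis genes held 1 fall. Of the 5, Tk1 fell (20%, against 12.5% lower over all genes), none rose and 4 did not pass, with a median of −0.12. Tk1, the thymidine kinase of the salvage route, had 52.3, 47.5 and 51.1 CPM in libraries labelled Klf5-KO, against 59.5, 61.4 and 59.0 CPM in the control libraries (chromosome 11, 117815526 to 117826092). The groups did not overlap, and Tk1 fell (log2 fold change −0.25, SE 0.08, adjusted p = 0.043). Of the 10 calls it was lost in the most settings, with an adjusted p of 0.077 to 0.14 without any 1 of the libraries other than control replicate 3 and 0.15 with no low-count filter.

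Rrm1 and Rrm2 encode the large and small subunits of ribonucleotide reductase. Rrm1 had 109.6, 102 and 115 CPM in libraries labelled Klf5-KO, against 159, 153 and 102 CPM in the controls, so that control replicate 3 lay below every library labelled Klf5-KO (log2 fold change −0.34, SE 0.15, adjusted p = 0.13). Leaving control replicate 3 out gave a log2 fold change of −0.52, which passed (adjusted p = 0.0025). With any other library left out instead, Rrm1 did not pass (weakest log2 fold change −0.23, highest adjusted p 0.35). Rrm2 had a log2 fold change of −0.12 (SE 0.09, adjusted p = 0.36). Tyms, the thymidylate synthase gene, was at 0.11 (SE 0.10, adjusted p = 0.43). Dut, the dUTPase gene and the highest of the 5 per length, had 56.2, 55.4 and 65.1 CPM in libraries labelled Klf5-KO, against 61.3, 62.8 and 55.8 CPM in the controls, with overlapping groups (log2 fold change −0.026, SE 0.09, adjusted p = 0.86).

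Both E2F regulators fell, against 12.5% lower over all genes. E2f2 had 20.4, 16.7 and 23.5 CPM in libraries labelled Klf5-KO, against 34.6, 30.9 and 31.2 CPM in the control libraries (ENSMUSG00000018983.9, chromosome 4, 136172394 to 136196057). Every control was above every library labelled Klf5-KO, and control replicate 3 lay with the other controls. E2f2 fell with a log2 fold change of −0.67 (SE 0.13, adjusted p = 0.0051) and passed without any 1 library (adjusted p at most 0.026). E2f1 had 23.8, 23.0 and 24.4 CPM in libraries labelled Klf5-KO, against 32.9, 33.8 and 27.3 CPM in the control libraries (chromosome 2, 154559407 to 154569892). The groups did not overlap, and E2f1 fell (log2 fold change −0.40, SE 0.10, adjusted p = 0.020), with an adjusted p of 0.056 to 0.076 without any 1 of the libraries other than control replicate 3.

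Per exon length (RPKM, the CPM per kilobase of exon), levels of the 45 genes ran from 2.48 for Gins3 to 106 for Pcna over all 6 libraries. By the mean over all 6 libraries, the next after Pcna were Mcm6 at 37.4 RPKM in the libraries labelled Klf5-KO and 47.9 in the controls, Mcm3 at 29.9 and 41.4, Mcm7 at 32.1 and 38.1, Mcm5 at 33.6 and 36.3, and Pold2 at 32.5 and 37.0. Below Mcm6, the order of these genes differed between the groups, which was not tested. Mcm2, another subunit of the same ring, stood at 17.3 RPKM in the libraries labelled Klf5-KO and 22.3 in the controls. The 3 listed genes of the origin recognition complex were lower, at 10.99 RPKM for Orc6, 6.78 for Orc2 and 4.17 for Orc1 over all 6 libraries. The level is divided by the joined length of all annotated exons, which understates genes with long exons that these cells do not use.

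**Figure D5:**
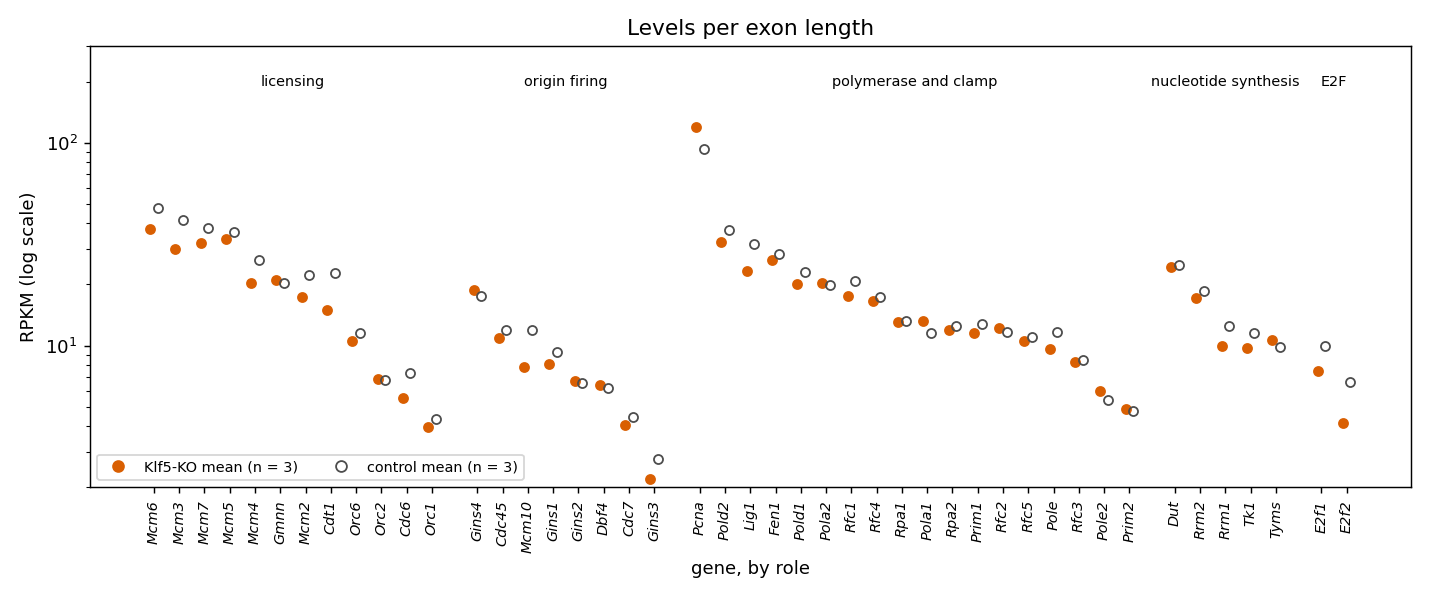
Mean RPKM (y axis, log scale) of each replication gene (x axis, by role) in the libraries labelled Klf5-KO (filled) and control libraries (open), n = 3 each. Pcna stands above the rest at 119 against 93.0 RPKM, and Gins3 is lowest at 2.21 against 2.76 RPKM.

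A further 80 genes of replication, in 4 lists, were read from the same fit. Of these, 15 fell (18.8%, against 12.5% of all genes) and 4 rose (5%, against 13.3%), with a median of −0.093. Among 27 other fork genes 7 fell (25.9%) and 1 rose (3.70%). Wdhd1, which tethers polymerase alpha to the helicase, fell (log2 fold change −0.50, adjusted p = 0.0045), as did Pold3 (−0.48), Rnaseh2a (−0.43) and Uhrf1 (−0.35), while Pole4, a small subunit of polymerase epsilon, rose (0.46, adjusted p = 0.0052). Rnaseh2a shares 9.66% of its exon bases with Gm49661. Among 14 other licensing and firing genes 1 fell (7.14%, against 12.5% of all genes) and 2 rose (14.3%, against 13.3%), with a median of 0.031. Mcmbp, which encodes an MCM-binding protein, fell (−0.37), and Orc4 and Orc3 rose (0.39 and 0.34).

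Among 24 other nucleotide genes 5 fell (20.8%, against 12.5% of all genes) and 1 rose (4.17%, against 13.3%). Impdh2, which starts the guanine branch of purine synthesis, fell to 190.4 CPM in libraries labelled Klf5-KO, against 309.7 CPM in the controls (log2 fold change −0.70, adjusted p = 0.0013), and the purine synthesis genes Atic, Gart and Paics fell (−0.44, −0.39 and −0.32). Samhd1, whose product breaks down deoxynucleotides, rose (0.54, adjusted p = 0.0012). Among 15 other genes of the E2F family and its partners 2 fell (13.3%, close to the 12.5% of all genes) and none rose (against 13.3%), with a median of −0.073. Those that fell were Tfdp2, a dimerization partner of E2F, and the repressor gene E2f8 (−0.61 and −0.57). Of these named genes, Wdhd1, Pole4, Impdh2 and Samhd1 passed without any 1 library. Tfdp2 did not pass without Klf5-KO replicate 2 (adjusted p = 0.053), nor Rnaseh2a or Atic without Klf5-KO replicate 1 (0.084 and 0.058) or 3 (0.056 and 0.057). Paics did not pass without control replicate 2 (0.071) or Klf5-KO replicates 1 or 3 (0.081 and 0.072), nor Gart without control replicates 1 or 2 (0.058 and 0.080) or Klf5-KO replicates 1 or 3 (0.0997 and 0.091). E2f8 and Pold3 did not pass without control replicates 1 or 2 or Klf5-KO replicates 1 or 2 (0.059 to 0.085 and 0.055 to 0.077). Uhrf1 and Mcmbp did not pass without any 1 of the libraries other than control replicate 3 (0.079 to 0.090 and 0.063 to 0.11), Orc3 without any 1 other than control replicate 1 (0.056 to 0.13), and Orc4 without any 1 of the 6 (0.0501 to 0.12).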

How the data were processed

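Stranded libraries of total RNA depleted of ribosomal RNA, per the labels' protocols, from sorted Lgr5-EGFP-bright cells were analysed, 3 labelled Klf5-KO and 3 control. Per the file headers, the authors counted reads per gene with featureCounts 1.4.3-p1 on GENCODE vM16 using the reverse strand setting. The deposited values are raw read counts, summed over all exons and not normalized. The command names no option for reads that match several places or several genes. STAR 2.5.2a and mm10 are named in the submitters' processing notes, as is DESeq2 1.18.1.

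Symbols from GENCODE vM21 matched 53274 of 53379 gene IDs. With edgeR 4.0.16 in R 4.3.3, filterByExpr left 19339 genes, TMM factors scaled the libraries, and the quasi-likelihood F test compared the groups with no other term. P-values were adjusted by Benjamini-Hochberg over all tested genes, and 0.05 was the threshold. The SE is the log2 fold change over the square root of F. CPM and RPKM use the TMM-scaled library sizes. A promoter is one of RefSeq's windows. The code was tested on simulated counts. Every pair of libraries differed by more than counting noise (chi-square over its degrees of freedom was 43.3 or more).

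The members and lists were chosen with earlier results of these data known. Values in every library were to be given for genes past the threshold and for the member of each role with the highest RPKM, and of the other lists up to 4 genes past the threshold per direction were to be named, by smallest adjusted p. Gmnn, Rfc1, Rrm1 and Dbf4 were given in every library, Mcm4 in every control library, and ratios between genes were formed, after values were seen. Alternatives were RLE and upper-quartile scaling, other low-count filters, DESeq2 1.42.0, limma-voom (limma 3.58.1), robust dispersion, a replicate block, removal of mitochondrial and ribosomal RNA-like genes, a threshold of 0.01 and leaving out each library. A covariate for Xist above Ddx3y was added after seeing the data.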

Additional observations from a re-analysis of the deposited data

How the results depend on the processing

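All 10 calls among the replication genes held under RLE and upper-quartile scaling, DESeq2, limma-voom, robust dispersion, a filter of CPM above 1 in 3 libraries and removal of mitochondrial and ribosomal RNA-like genes. Tk1 was lost with no low-count filter (adjusted p = 0.15), the replicate block (0.071) and the Xist covariate (0.076). At an adjusted p under 0.01, 0 replication genes were higher and 3 lower (Cdt1, Mcm10 and E2f2), 2 and 2 of the other pathway genes, and 1226 and 1118 of all genes. Leaving out 1 library gave 0 to 1 replication genes higher and 4 to 17 lower, 2 to 4 and 3 to 24 of the other pathway genes, and 1605 to 2740 and 1467 to 2664 of all genes. These fits hold fewer samples. With the Xist covariate 2 of the other pathway genes were higher and 11 lower, against 4 and 15 without it, and Mcmbp (adjusted p = 0.052), Orc4 (0.062) and Orc3 (0.056) did not pass. No called replication gene changed sign. Among those not called, the sign of Orc2 turned with upper-quartile scaling (−0.0050) and that of Rpa1 with no low-count filter (0.011). Without 1 library, log2 fold changes crossed 0 for Orc2 (−0.14 to 0.10), Gins2 (−0.011 to 0.074), Cdc7 (−0.30 to 0.014), Dbf4 (−0.13 to 0.20), Pola2 (−0.076 to 0.11), Prim2 (−0.0075 to 0.10), Rfc3 (−0.082 to 0.024), Rfc4 (−0.15 to 0.018), Rfc5 (−0.20 to 0.041), Rpa1 (−0.083 to 0.032) and Dut (−0.10 to 0.035). Deviations of same-numbered libraries correlated at −0.033, 0.037 and −0.037, so the numbers were not taken as pairs. With the replicate block, 1 replication gene was higher and 8 lower, 3 and 16 of the other pathway genes (Orc3 was lost, adjusted p = 0.061), and 2286 and 2088 of all genes. The log2 fold changes of the 35 replication genes not past the threshold had SEs of 0.08 to 0.16, so small differences could not be told from 0.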

Other observations

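Among all tested genes with a promoter window, 522 held an E2F-type motif. Of these, 76 were lower (14.6%) and 40 higher (7.66%) in the libraries labelled Klf5-KO, with a median log2 fold change of −0.046. Of the 11498 without the motif, 1594 were lower (13.9%) and 1549 higher (13.5%), with a median of −0.025. These shares were not tested.

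Among tested genes with mean levels in the range of the replication genes (6.73 to 255 CPM), 12.6% of 9602 were lower and 14.5% higher. The ratio of Rrm2 to Rrm1 per exon length was 1.59, 1.85 and 1.75 in the libraries labelled Klf5-KO, against 1.34, 1.34 and 1.91 in control replicates 1, 2 and 3. Mcm10 over Mcm2 was 0.470, 0.438 and 0.447 against 0.617, 0.485 and 0.509, without overlap.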
